A study of Mus musculus with 12 samples.

Results

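The outer dense fiber and fibrous sheath genes were the 10 genes Odf1, Odf2, Odf3, Odf4, Akap3, Akap4, Fsip1, Fsip2, Ropn1 and Ropn1l, taken by their symbols. Each symbol matched 1 entry of both count tables, so they made up 10 of 51826 entries in the sperm table and 10 of 23502 in the testis table. The study asked how Xap5 and its retrotransposed relative Xap5l act on the genes that build the sperm flagellum. RNA-seq covered 12 mouse libraries in 4 groups of 3 replicates. The study used C57BL/6J mice, the background on which the floxed Xap5 and the Xap5l KO lines were made. Mature cauda epididymal sperm of WT and Xap5l KO males were collected at P56 (postnatal day 56), and whole testes of WT and Xap5 cKO males at P16. The Xap5l KO line was made with CRISPR/Cas9 and is constitutive, not limited to germ cells. In the Xap5 cKO, a Cre recombinase expressed from the Stra8 locus removes a floxed Xap5 from germ cells, so somatic cells of the testis keep the gene. The labels call both control groups WT, and the study's text describes the controls of the cKO line as floxed males without Cre.

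The mammalian sperm tail carries structures that other cilia lack. Outer dense fibers run along the axoneme, the microtubule core of the tail, and give it stiffness and tensile strength. The fibrous sheath surrounds the fibers in the principal piece, where it anchors protein kinase A and the enzymes of glycolysis. Most of these genes are transcribed late, in pachytene spermatocytes or in spermatids, and transcripts found in mature sperm are stored or left over, because sperm nuclei are transcriptionally silent.

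Of the 10 genes, 6 were tested in both comparisons. Of these, 5 were called higher in Xap5l KO sperm and lower in Xap5 cKO testes: Odf4, Akap3, Fsip1, Fsip2 and Ropn1l. Over all 13962 genes tested in both, 2.69% had this pair of calls. The upstream sequences of the 5 differ in CG content and are shown so that this can be seen. The 250 bases before the annotated start are given for 3 of them from the RefSeq promoter table (GRCm38.p6), in the direction of transcription, 5′ to 3′, with each CG dinucleotide in capitals. Fsip1 and Odf1 had no entry in that table.
Odf4, chr11:68927082-68927331, minus strand: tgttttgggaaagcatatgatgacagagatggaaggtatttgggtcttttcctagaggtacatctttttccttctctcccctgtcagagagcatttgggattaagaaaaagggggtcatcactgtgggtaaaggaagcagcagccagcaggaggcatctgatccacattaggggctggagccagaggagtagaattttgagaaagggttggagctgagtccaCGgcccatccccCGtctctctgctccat
Akap3, chr6:126852848-126853097, plus strand: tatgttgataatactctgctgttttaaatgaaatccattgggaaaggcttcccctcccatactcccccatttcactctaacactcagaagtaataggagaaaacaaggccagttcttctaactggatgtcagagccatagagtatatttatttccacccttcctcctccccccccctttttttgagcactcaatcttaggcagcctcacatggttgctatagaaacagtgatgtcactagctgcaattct
Fsip2, chr2:82943384-82943633, plus strand: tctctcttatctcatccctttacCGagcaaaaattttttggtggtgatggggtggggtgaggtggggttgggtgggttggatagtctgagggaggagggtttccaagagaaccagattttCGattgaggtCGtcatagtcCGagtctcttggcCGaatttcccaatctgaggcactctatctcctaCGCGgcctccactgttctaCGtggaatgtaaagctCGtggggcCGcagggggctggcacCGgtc
The Odf4 stretch held 2 CG dinucleotides, the Akap3 stretch 0 and the Fsip2 stretch 11, where the median of all 32851 promoters in the table was 6. Among the other entries, both Akap4 promoters held 0, Odf3 held 1, Ropn1 2, Ropn1l 18, and the 4 Odf2 promoters 22 to 35. As GENCODE draws the genes, the stretches of Ropn1, of the second Akap4 promoter and of all 4 Odf2 promoters lie wholly inside the gene. Those of Odf3 and Ropn1l lie inside it in part, and neighbouring Odf2 stretches overlap one another. Both strands of these 250 bases were searched for 3 short motifs, TGACGT (part of the cyclic AMP response element), TGTTTAC (a forkhead motif) and GTTGCC (part of the X-box bound by Rfx factors). They occurred in 6.47%, 3.17% and 10.4% of all promoters. Only GTTGCC was found among the 8 members with an entry, once in Ropn1l and once in Odf3. Both sites are shown as 30 bases with the motif in capitals, and the Odf3 site was added after its match was seen.
Ropn1l, chr15:31453692-31453721, minus strand: tgcgcagctcggGTTGCCtggagaccgcac
Odf3, chr7:140847839-140847868, plus strand: cctttttagggaGTTGCCtggcacagacac
The motif began 20 bases before the RefSeq start in Ropn1l and 65 bases before it in Odf3. Both sites lie inside the gene as GENCODE draws it, because GENCODE places the start farther upstream. A match of 6 letters is a description and not a bound site.

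The depth was similar across libraries, at 38881197 to 52308452 counts in sperm and 32251198 to 36759054 in testes, so that 1 count was worth 0.0172 to 0.0311 CPM (counts scaled to library size, with TMM factors). Xap5l (Fam50b) had 419 to 574 counts in WT sperm and 8 to 23 in Xap5l KO sperm. Xap5 (Fam50a) had 811 to 988 counts in WT testes and 616 to 673 in Xap5 cKO testes, which contain somatic cells. Xap5l was also lower in Xap5 cKO testes, with 0 to 7 counts against 197 to 539 in WT. In Xap5l KO sperm Xap5 was lower too, with a mean of 9.46 CPM against 16.1 in WT. That log2 fold change of -0.76 (edgeR, adjusted p = 0.0393) was under the 2-fold threshold. Elongating spermatid markers summed to 10850 CPM or more in every sperm library. WT testis replicate 3 was nearer to the cKO libraries than the other WT testes were, with correlations of log2 CPM of 0.9481 to 0.9524 against 0.9194 to 0.9255.

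In sperm, Odf1 stood far above the others per kilobase of exon. Its level in WT was 16250 ± 9124 CPM per kb (SD, n = 3), against 283.4 ± 55.2 for Akap4, 166.4 ± 51.1 for Odf2 and 104.2 ± 17.5 for Ropn1l. Odf4 (30.2 CPM per kb), Akap3 (28.4) and Ropn1 (17.8) followed, and the libraries of Odf4 and Akap3, and of Akap3 and Ropn1, overlapped. Odf3 was at 9.09 CPM per kb, and Fsip1 at 2.29 and Fsip2 at 1.23 were the lowest. With the longest transcript as the length in place of all exons, Odf2 passed Akap4. The order in Xap5l KO sperm was the same except that Akap3 and Odf4 changed places, and those 2 overlapped in both genotypes.

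The first comparison asked how the loss of Xap5l changes the transcripts of mature sperm. Of the 10 genes, 7 were called higher in Xap5l KO sperm (adjusted p under 0.05 and fold change above 2, edgeR quasi-likelihood test) and 0 lower, where 7.59% of all 20945 genes tested were called higher and 1.27% lower. At an unadjusted p under 0.05 with the same fold change, 0 were lower as well (2.89% of all genes tested), and DESeq2 also called 7 higher and 0 lower. The 7 were Odf3, Odf4, Akap3, Akap4, Fsip1, Fsip2 and Ropn1l. In 9 of 10, every KO library lay above every WT library, which held for 19.2% of all genes tested. The median log2 fold change of the 10 was 1.14, beside -0.08 for all genes tested. In bulk RNA, a change in the share of cells that carry a transcript and a change in the amount per cell cannot be told apart.

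Among the outer dense fiber genes, Odf1 was the exception. Odf1 (chr15:38219203-38226735, GRCm38, plus strand, 2 exons) encodes a major cysteine-rich protein of the fibers. Its counts were 975613, 506434 and 567090 in the WT libraries against 328087, 361366 and 1015380 in the KO libraries. The groups overlapped, because KO replicate 3 was above WT replicates 2 and 3. Its level was 17959 ± 10083 CPM in WT and 11106 ± 5654 in KO (SD, n = 3), a log2 fold change of -0.69 (SE 0.539) that did not pass the test (edgeR, adjusted p = 0.382). Odf1 alone took 0.732% to 2.43% of all counts in a library, and the other 9 genes together 0.245% to 0.712%.

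Odf2 (chr2:29889221-29931746, plus strand) encodes a fiber protein that is also part of the appendages of centrioles. Its counts were 73065, 62921 and 57379 in WT and 117023, 149740 and 211877 in KO. All KO libraries were above all WT libraries, yet the log2 fold change of 0.97 (SE 0.341) missed the threshold (edgeR, adjusted p = 0.0846). An exon of Odf2 overlaps Gm23865 on the other strand, and whether counting used strand is not known here. Odf3 (chr7:140847805-140851018, plus strand, 5 exons) encodes a protein of the tail cytoskeleton. It had 781, 709 and 730 counts in WT against 2755, 3506 and 2219 in KO. Odf3 rose from 18.8 ± 4.30 to 60.0 ± 20.5 CPM (SD, n = 3), with a log2 fold change of 1.68 (SE 0.296, edgeR, adjusted p = 0.0148). Odf4 (chr11:68921835-68927081, minus strand, 5 exons) encodes a membrane protein of the tail. It had 1480, 1224 and 1465 counts in WT against 3230, 4487 and 3270 in KO, and rose by a log2 fold change of 1.12 (SE 0.261, edgeR, adjusted p = 0.0283). For both genes the groups did not overlap, and KO replicate 3 was the lowest KO library once scaled.

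Akap3 and Akap4 encode the anchoring proteins that form the body of the fibrous sheath and hold protein kinase A there. Akap3 (chr6:126853098-126874308, plus strand, 6 exons) had 3750, 3579 and 3235 counts in WT against 8922, 13006 and 9985 in KO. It rose from 89.6 ± 22.3 to 220 ± 43.6 CPM (SD, n = 3), a log2 fold change of 1.3 (SE 0.266, edgeR, adjusted p = 0.0196). The X-linked Akap4 (chrX:7067519-7078609, plus strand, 7 exons), the highest of the sheath genes per kilobase, had 34365, 34256 and 33217 counts in WT against 59651, 87224 and 128905 in KO. It rose from 858 ± 167 to 1830 ± 337 CPM (SD, n = 3), with a log2 fold change of 1.09 (SE 0.301, edgeR, adjusted p = 0.0452). The KO libraries were all above the WT libraries for both genes, but they were in different orders: KO replicate 3 was the highest for Akap4 and the lowest for Akap3.

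Fsip1 and Fsip2 encode proteins that interact with the sheath, Fsip2 being a very large one. Fsip1 (chr2:118130424-118256966, minus strand, 12 exons) had 245, 276 and 278 counts in WT against 988, 1546 and 982 in KO. Its rise, from 6.66 ± 0.722 to 24.3 ± 6.47 CPM (SD, n = 3), was the largest of the 10, at a log2 fold change of 1.87 (SE 0.25, edgeR, adjusted p = 0.0118). Its exons overlap those of Gm29232 on the same strand, so counts of the pair may be shared. Fsip2 (chr2:82943634-83008937, plus strand, 23 exons) had 1056, 1082 and 942 counts in WT against 2705, 4269 and 2606 in KO, a log2 fold change of 1.35 (SE 0.275, edgeR, adjusted p = 0.0195). Every KO library was above every WT library for both, with KO replicate 3 the lowest of the 3.

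The ropporins carry a domain like that of the protein kinase A regulatory subunit and bind the anchoring proteins through it. Ropn1 (chr16:34649921-34678618, plus strand, 5 exons) had 1014, 934 and 859 counts in WT against 1301, 2116 and 3023 in KO. Its KO libraries were all above the WT libraries, but the log2 fold change of 0.83 (SE 0.247) did not pass (edgeR, adjusted p = 0.0549). Ropn1l (chr15:31441211-31453737, minus strand, 5 exons) had 3925, 3816 and 4146 counts in WT against 8698, 14383 and 9578 in KO. It rose from 99.8 ± 16.8 to 224 ± 52.1 CPM (SD, n = 3), a log2 fold change of 1.17 (SE 0.257, edgeR, adjusted p = 0.0234), with no overlap.

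**Figure D1:**
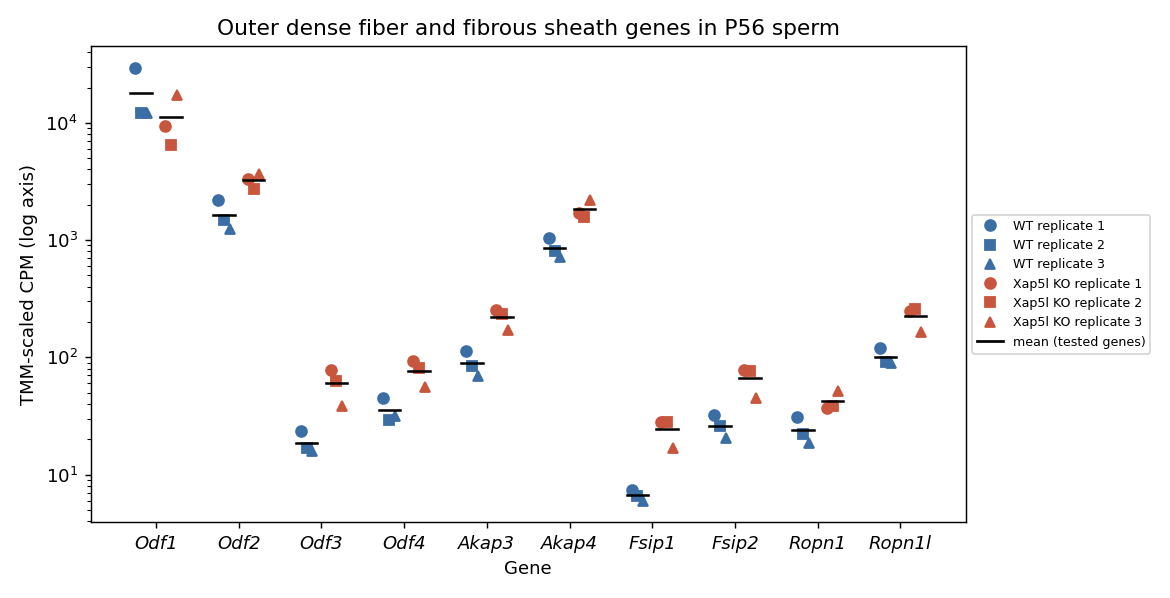
Level of each gene in CPM (log axis) in the 6 sperm libraries, 3 WT (blue) and 3 Xap5l KO (red), with the mean of each group as a black line. For 9 genes all KO points lie above all WT points, and Odf1, the highest gene, is the 1 whose groups overlap.

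The calls in sperm depended on single libraries. Without WT replicate 2, WT replicate 3 or KO replicate 2, 0 of the 10 were called, while 1 or 2 genes of the whole table were called in each direction. Without KO replicate 1, 2 were called (Odf3 and Fsip1), without KO replicate 3, 7, and without WT replicate 1, 9, when Odf2 (log2 fold change 1.23) and Ropn1 (1.05) passed too (edgeR, adjusted p = 0.0381 and 0.0331). In each of these 6 fits the log2 fold changes of the 9 genes other than Odf1 stayed above 0.

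The KO libraries did not order the genes alike. KO replicate 3 was the highest KO library for Odf1, Odf2, Akap4 and Ropn1, at 1.20 to 2.19 times the mean of KO replicates 1 and 2. It was the lowest for Odf3, Odf4, Akap3, Fsip1, Fsip2 and Ropn1l, at 0.536 to 0.700 times that mean. The same 4 and 6 genes came out when libraries were scaled by their size alone. Among WT libraries, replicate 1 was the highest for all 10 genes with TMM scaling, but for 6 with library size alone, so that order depends on the scaling.

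**Figure D2:**
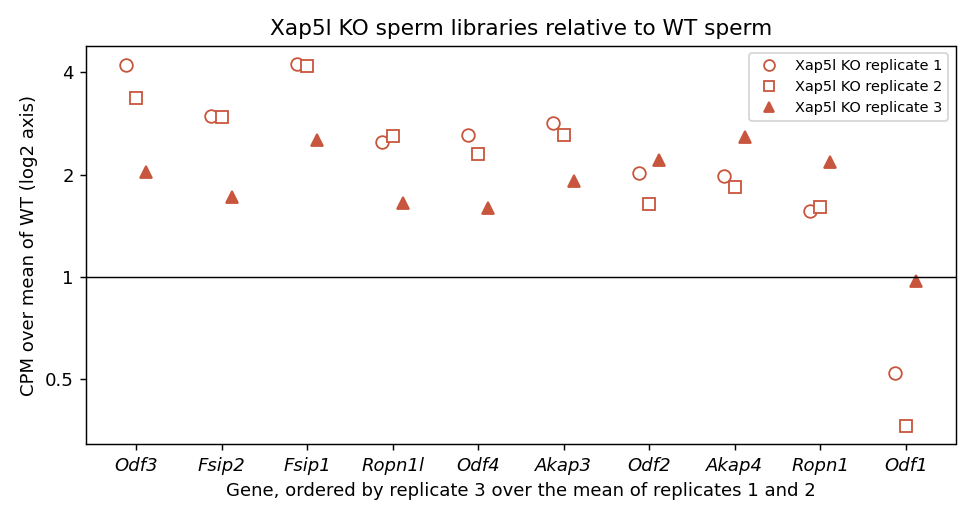
CPM of each gene in the 3 Xap5l KO sperm libraries over the mean of the 3 WT libraries (log2 axis), with genes ordered by how KO replicate 3 (filled) compares with replicates 1 and 2 (open). In the 6 genes on the left replicate 3 is the lowest, and in the 4 on the right it is the highest.

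Ratios of counts within a library need no scaling, and 4 were formed in sperm and 2 in testes after the values had been seen. Odf1 had 8.15, 4.65 and 5.55 times the counts of the other 9 genes together in WT, and 1.60, 1.29 and 2.73 times in KO. These groups did not overlap, but an exact two-sided permutation test cannot go below p = 0.1 with 3 libraries against 3, and gave that value (adjusted p = 0.3 over the 6 ratios). The ratio of Akap3 to Akap4 was 0.109, 0.104 and 0.0974 in WT and 0.150, 0.149 and 0.0775 in KO, and that of Ropn1l to Ropn1 was 3.87, 4.09 and 4.83 in WT and 6.69, 6.80 and 3.17 in KO. In both ratios KO replicates 1 and 2 were the highest and KO replicate 3 the lowest of the 6 libraries, so that the groups overlapped (exact permutation p = 0.4 each). The ratio of Odf3 to Odf2 showed the same, at 0.0107, 0.0113 and 0.0127 in WT and 0.0235, 0.0234 and 0.0105 in KO (exact permutation p = 0.4, adjusted p = 0.4).

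Markers of some other germ cells moved in the same comparison. All 8 round spermatid markers were called higher in Xap5l KO sperm, and their summed level was 102 to 143 CPM in WT and 236 to 421 in KO, with KO replicate 3 the lowest KO library, as it was for 6 of the 10 genes. Of the pachytene markers, 3 of 7 were called higher by edgeR and 4 by DESeq2 (summed level 553 to 828 CPM in WT and 810 to 1833 in KO). At an unadjusted p under 0.05 without the fold threshold, 5 were higher and 1 was lower, Piwil1 (log2 fold change -0.97). The largest part of the sum was Ybx2, with a mean of 413 CPM in WT and 849 in KO, which overlapped and was not called by edgeR. Spermatogonial markers summed to 26.5 to 29.0 CPM in WT and 26.0 to 29.7 in KO, with 0 of 6 tested called by edgeR or DESeq2 (1 at an unadjusted p under 0.05). Leptotene and zygotene markers summed to 24.4 to 45.8 and 32.1 to 43.7 CPM, with 0 of 7 tested called by either tool or at an unadjusted p under 0.05. Of the elongating spermatid markers, 0 of 7 were called by edgeR or DESeq2, and 1 had an unadjusted p under 0.05. They summed to 10850 to 18460 CPM in WT and 17770 to 29110 in KO. The largest part was Prm2, with a mean of 10175 CPM in WT and 19821 in KO. Of the 7, 1 had a negative log2 fold change, Tssk6 (-0.25). Leukocyte markers summed to 714 to 748 CPM in WT and 134 to 459 in KO, the largest part being Lyz2 (mean 566 and 213 CPM). Of 7, 1 was called lower by edgeR, 2 by DESeq2 and 5 at an unadjusted p under 0.05. Epididymal epithelium markers summed to 5900 to 7994 CPM in WT and 4167 to 5820 in KO, the largest part being Crisp1 (mean 6199 and 4580 CPM). Of 3 tested, 0 were called by edgeR or DESeq2 (1 at an unadjusted p under 0.05). Lcn5 and Cst11 were at 3 or fewer counts in every library. The part of these markers in the results for the tail genes was not tested.

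The second comparison asked how the loss of Xap5 in germ cells changes the testis at P16, when the first wave of spermatogenesis is in meiosis. Of the 10 genes, 6 passed the filter on low counts, and each of these fell in Xap5 cKO testes (6 of 6, edgeR and DESeq2), where 10.9% of all 16821 genes tested were called lower and 4.15% higher. They were Odf2, Odf4, Akap3, Fsip1, Fsip2 and Ropn1l. Every cKO library lay below every WT library for each of them, as for 32.4% of all genes tested. The other 4 had 17 or fewer counts in every library and did not pass the filter. In fits without it, Odf1 (log2 fold change 1.7, unfiltered edgeR, adjusted p = 0.327) and Akap4 (-0.89, adjusted p = 0.613) were not called, nor by DESeq2. Odf3, at 3 or fewer counts in every library, was not called by either tool, and Ropn1 had 0 counts and could not be fitted. Odf4 passed the filter through its WT libraries alone, so the 6 describe the genes that passed and not all 10. The median log2 fold change of all genes tested was -0.01.

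Odf4 was not detected in the cKO libraries. It had 1156, 1069 and 465 counts in WT testes against 0, 0 and 0 in cKO testes. Set against 3 counts per library, Odf4 was at least 281-fold lower than the WT mean of 25.6 CPM (edgeR, adjusted p = 3.57e-05). WT replicate 3 alone was at 12.9 CPM, for which this bound is lower. Odf2 had 9463, 9394 and 6608 counts in WT against 3498, 3961 and 4004 in cKO, and fell from 241 ± 51.1 to 116 ± 6.46 CPM (SD, n = 3), with a log2 fold change of -1.06 (SE 0.138, edgeR, adjusted p = 0.000233). This was the smallest of the 6 falls, and without WT replicate 1 it was -0.94, under the fold threshold. Odf1 had 8, 0 and 2 counts in WT against 9, 6 and 17 in cKO, and Odf3 0, 2 and 0 in WT and 0, 3 and 0 in cKO, so neither passed the filter.

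The sheath scaffold was hardly present at this age. Akap3 had 121, 199 and 148 counts in WT against 32, 43 and 32 in cKO, and fell from 4.39 ± 0.959 to 1.08 ± 0.161 CPM (SD, n = 3), a log2 fold change of -2.02 (SE 0.296, edgeR, adjusted p = 0.000443). Akap4 had 4, 6 and 14 counts in WT against 0, 7 and 5 in cKO, below the filter. Of the sheath interactors, Fsip1 had 521, 488 and 363 counts in WT against 74, 109 and 104 in cKO, a log2 fold change of -2.17 (SE 0.237, edgeR, adjusted p = 8.97e-05). Fsip2 had 2999, 3195 and 1999 counts in WT against 376, 437 and 660 in cKO, and fell from 77.5 ± 19.0 to 14.9 ± 4.53 CPM (SD, n = 3), a log2 fold change of -2.38 (SE 0.241, edgeR, adjusted p = 6.36e-05). The testis table lists a further entry, Fsip2l, whose symbol resembles Fsip2 and which had 145 to 249 counts in WT and 214 to 354 in cKO. It is not among the 10, and reads could be split between these loci if their sequences are similar, which was not checked.

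Ropn1l had the largest fall of the 5 tested genes other than Odf4. It had 5144, 5086 and 2150 counts in WT against 237, 366 and 348 in cKO, and fell from 117 ± 50.4 to 9.56 ± 1.90 CPM (SD, n = 3), a log2 fold change of -3.62 (SE 0.340, edgeR, adjusted p = 4.49e-05). Its partner Ropn1 had 0 counts in all 6 testis libraries, which allows up to 3 counts per library. Per kilobase of exon, Ropn1l was the highest of the 10 in WT testes (122.8 ± 52.7 CPM per kb), followed by Odf2 (24.3) and Odf4 (21.9), which overlapped, then Fsip1 (4.46) and Fsip2 (3.67), which overlapped too, and Akap3 (1.39). In cKO testes Odf2 (11.7 CPM per kb) and Ropn1l (9.99) were the highest and overlapped.

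**Figure D3:**
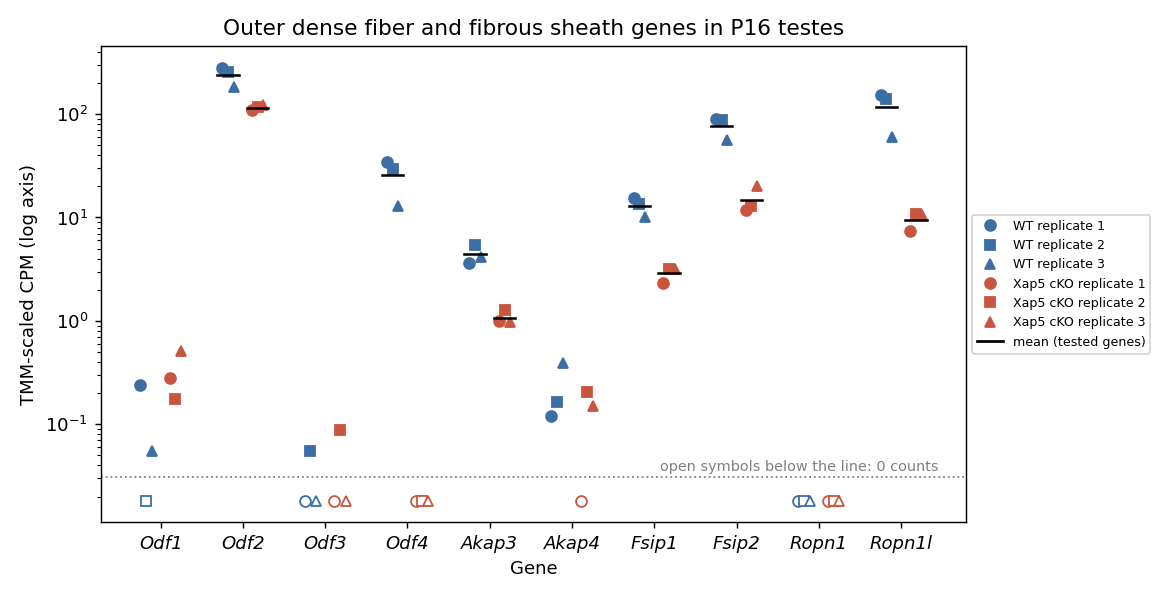
Level of each gene in CPM (log axis) in the 6 testis libraries, 3 WT (blue) and 3 Xap5 cKO (red), with the group mean as a black line for genes that were tested, and open symbols below the dotted line for libraries with 0 counts. Odf4 has 0 counts in all cKO libraries, and WT replicate 3 (blue triangle) is the lowest WT library for Odf2, Odf4, Fsip1, Fsip2 and Ropn1l.

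WT replicate 3 lay between the other WT libraries and the cKO libraries for most genes. Its level as a percentage of the mean of WT replicates 1 and 2 was 40.6% for Odf4, 40.8% for Ropn1l, 62.8% for Fsip2, 68.1% for Odf2, 69.8% for Fsip1 and 90.8% for Akap3. The mean cKO level was 16% of WT replicate 3 alone for Ropn1l, 26.2% for Akap3, 26.7% for Fsip2, 28.6% for Fsip1 and 62.9% for Odf2. Without WT replicate 3 all 6 were still called. Of the ratios within a library, that of Ropn1l to Odf2 also had WT replicate 3 between the other WT and the cKO libraries. It was 0.544, 0.541 and 0.325 in WT and 0.0678, 0.0924 and 0.0869 in cKO (exact two-sided permutation p = 0.1, the smallest possible, adjusted p = 0.3). The ratio of Fsip1 to Fsip2 was 0.174, 0.153 and 0.182 in WT and 0.197, 0.249 and 0.158 in cKO, and overlapped (p = 0.4, exact permutation test).

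Pachytene markers moved in the same direction as these genes. Of the 7, 6 were called lower, and their summed level was 2145, 2174 and 1240 CPM in WT and 285, 277 and 383 in cKO, with WT replicate 3 again between. Leptotene and zygotene markers fell in 7 of 8 cases (2307 to 2706 CPM in WT and 1057 to 1432 in cKO). Of the spermatogonial markers 2 of 7 were called lower, and they summed to 675 to 755 CPM in WT and 461 to 502 in cKO. At an unadjusted p under 0.05 without the fold threshold, 6 of them were lower and 1 higher. Round spermatid markers summed to 18.5 to 36.9 CPM in WT and 9.89 to 12.4 in cKO, with 1 of 4 tested called lower. That gene, Acr, made up most of the WT sum, at 24.3, 26.2 and 11.2 CPM in WT against 0.0622, 0 and 0.273 in cKO. The other tested genes were not called: Tssk1 and Izumo1 had negative log2 fold changes and Spaca1 a positive one (0.44). Elongating spermatid markers stayed under 1.65 CPM, with Prm2 and Hmgb4 at the floor. Sertoli markers summed to 882 to 982 CPM in WT and 1536 to 1594 in cKO, with 1 of 6 called higher, and leukocyte markers to 66.0 to 96.4 and 142 to 188 CPM, with 4 of 5 tested called higher. The part of these markers in the falls of the tail genes was not tested.

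The comparisons share no libraries, and 5 of the 6 genes tested in both were called higher in Xap5l KO sperm and lower in Xap5 cKO testes: Odf4, Akap3, Fsip1, Fsip2 and Ropn1l. Over all 13962 genes tested in both, 376 (2.69%) had this pair of calls. Odf2, the sixth, fell in testes and did not pass in sperm, where its log2 fold change was 0.97. The genotypes, ages and tissues differ between the comparisons, and the difference between the effects was not tested.

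**Figure D4:**
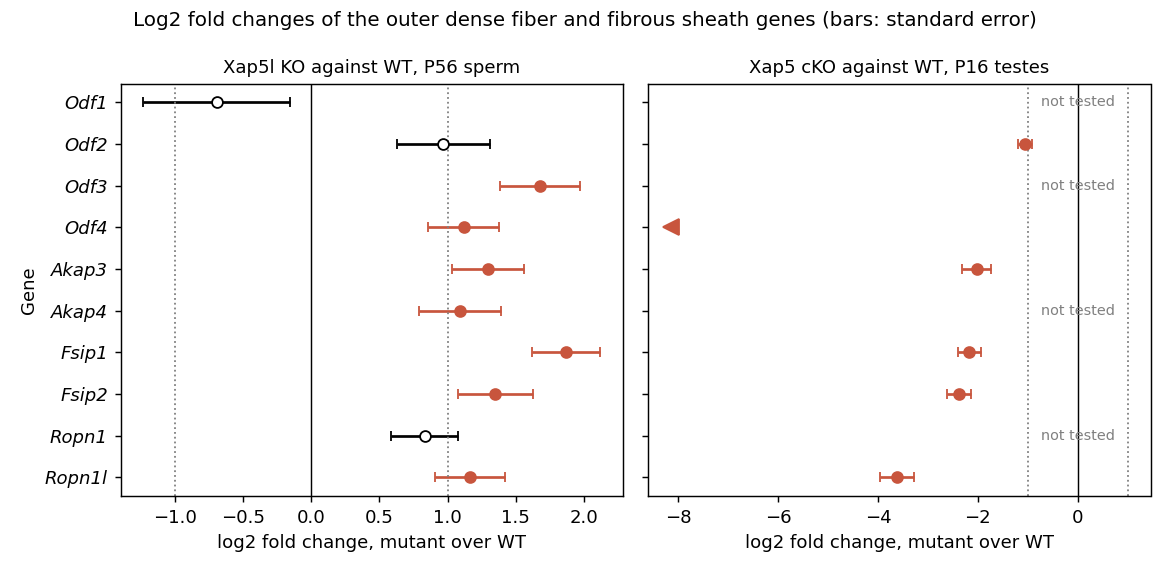
Log2 fold change of each gene, mutant over WT, with standard errors, in sperm (left) and testes (right), where filled points are called genes, open points are not, and dotted lines mark a fold change of 2. The arrowhead for Odf4 in testes is a bound against 3 counts, and 4 genes did not pass the filter there.

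Known partners and paralogs of these proteins, all called partners here, were counted for comparison, on a list of 24 genes taken from their known roles. Of these, 23 were tested in sperm, where 5 were called higher and 0 lower, beside 7.59% and 1.27% of all genes tested. At an unadjusted p under 0.05 and by DESeq2, 0 were lower as well, and the median log2 fold change was 0.67. The largest rises were those of Akap14, which encodes another anchoring protein (log2 fold change 2.18, edgeR, adjusted p = 0.0146), Tssk4, which encodes a testis-specific kinase (1.90, adjusted p = 0.0122), and Spag4 (1.5, adjusted p = 0.0157). Ldhc, the testis form of lactate dehydrogenase, and Rhpn1 were the other 2. DESeq2 called 7 of the partners higher. In testes 19 were tested, and 10 fell and 0 rose, with a median of -1.02. Of all genes tested there, 10.9% were called lower and 4.15% higher. DESeq2 also gave 10 and 0 for the partners. Without the fold threshold 2 partners were higher, Prkar2a (log2 fold change 0.56, edgeR, adjusted p = 0.00217) and Prkaca (0.40, adjusted p = 0.00029). They encode subunits of protein kinase A. Tcp11 (log2 fold change -6.27, edgeR, adjusted p = 2.46e-05) and Ldhc (-6.19, adjusted p = 1.77e-05) were among the largest falls. Ccdc42 fell too (adjusted p = 8.28e-05, edgeR), with 408, 371 and 100 counts in WT against 0, 2 and 0 in cKO, where it was at the floor, so no fold is given. Of the 19, 3 had the pair of calls seen in the tail genes (Ldhc, Rhpn1 and Spag4, named after their values were seen). This pair was held by 2.69% of all genes tested in both. Akap14, Fscb and Aldoart1 had 0 counts in every testis library.

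Neighbouring structures of the tail, the mitochondrial sheath and the annulus, were covered by a list of 7 genes, of which 5 matched a symbol in the sperm table. The other 2, Sept4 and Sept12, matched none there. Some names in that table have the form of dates, so their rows may be present under altered names, which were not used. In sperm 0 of the 5 were called by edgeR or DESeq2, with 1 at an unadjusted p under 0.05, and Smcp, a mitochondrial capsule gene, had a log2 fold change of -0.97 (edgeR, adjusted p = 0.267). In testes 5 were tested and 3 fell: Septin12, an annulus gene (log2 fold change -2.72, edgeR, adjusted p = 0.000404), Slc26a8, an annulus anion transporter gene (-2.43, adjusted p = 7.89e-05) and Spata18 (-2.49, adjusted p = 0.0013), the last named after its value was seen.

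Among 8711 other genes with at least 5 CPM in WT in both tissues, those whose profile over the 12 libraries was nearest to the median profile of the 10 were Sass6, Spata6 and Lrwd1. The root mean square difference in log2 CPM, each tissue set to its WT mean, was 0.106, 0.125 and 0.129. In testes this median was taken over all 10, of which only 6 passed the filter and fell, so it is not the profile of those 6. With a larger prior count the nearest 3 were Ttll9, Efcab3 and Brdt (0.11, 0.114 and 0.117), and 0 were shared, so the order among near genes depends on that setting.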

How the data were processed

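RNA-seq of 12 mouse libraries was analysed in 4 groups of 3, taken from the sample labels: WT and Xap5l KO sperm, and WT and Xap5 cKO testes. The authors extracted RNA with TRIzol, sequenced paired-end reads of 150 bases and deposited raw counts per gene, 1 table for each tissue. The submitters' processing notes name FastQC 0.11.2, Trimmomatic 0.36, HISAT2 2.1.0, DESeq2 1.12.4 and GRCm38. The counting tool, strand setting and treatment of reads mapping to several genes are not given in the sources used here, so overlapping genes and near-identical copies may share counts.

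Each table was filtered with filterByExpr, scaled by TMM and fitted on its own with edgeR 4.0.16 (R 4.3.3) quasi-likelihood tests, with genotype as the only term and Benjamini-Hochberg adjustment over all genes tested. A call required an adjusted p under 0.05 together with a change of more than 2-fold. DESeq2 1.42.0 was an alternative. The fit was tested on simulated counts. The design cannot reach p under 0.1 in an exact test of 1 gene. Replicates of sperm varied more (common coefficient of variation 0.287) than those of testes (0.174). A gene with 3 or fewer counts in each library of a group was at the floor. Floors cover counting error only. Levels per kilobase used GENCODE exon unions. Sequences came from RefSeq. Named genes were the 10 members, the targeted genes, the 3 called genes of each partner list with the largest rise or fall among those with at least 5 CPM, and the 3 nearest profiles. The members, lists and tests were chosen with earlier results of these data known.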

Additional observations from a re-analysis of the deposited data

How the results depend on the processing

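The fitted log2 fold changes of the 10 genes changed sign in 0 of the alternatives run, and the limits lie in the sperm calls. Of the tests of single genes with 1 library left out, 32 kept their side of the threshold in sperm, 26 lost the call and 2 gained it, against 35 and 1 lost in testes. Under the other alternatives 81 kept it, 8 lost it and 1 gained it in sperm, and 53 of 53 kept it in testes, where Odf4 could not be tested with at least 10 counts required in every library, so that 5 of the 10 genes were called lower. With 1 sperm library left out, the counts ranged from 1 to 2402 genes higher, 1 to 443 lower, 0 to 9 of the 10 genes higher and 0 to 9 partners higher, and in testes from 559 to 884 higher, 1687 to 1955 lower, 5 to 6 of the 10 genes lower and 9 to 10 partners lower. The deviations of same-numbered libraries from their group means had correlations of -0.122 to 0.166 in sperm and -0.0345 to 0.00711 in testes. In sperm, WT and KO replicate 1 correlated best with each other (0.166) and had the lowest TMM factors (0.8206 and 0.8082). Not every library correlated best with its own number, and the largest value in sperm was between WT replicate 3 and KO replicate 2 (0.241). With the replicate block, sperm genes called higher were 1147 and lower 147, partners higher 3, and Akap4 was lost (adjusted p = 0.0751, edgeR), while 6 of the 10 genes were still called in testes. Scaling by library size alone gave 149 sperm genes lower, and Odf2 passed (log2 fold change 1.02, adjusted p = 0.0339, edgeR). At adjusted p under 0.01, 0 sperm genes were called higher and 0 lower, with 0 of the 10 genes and 0 partners, while 2385 genes were higher and 605 lower at an unadjusted p under 0.05. Without the fold threshold 643 sperm genes were lower, and in testes 4202 were higher and 4734 lower, with 2 partners higher. With the longest transcript as length, Odf2 was at 384.6, 752, 56.2 and 26.9 CPM per kb in WT sperm, KO sperm, WT testes and cKO testes, Fsip1 at 3.21, 11.7, 6.26 and 1.39, and Odf3 at 11.5 in WT sperm. Without the filter on low counts the median log2 fold change of all sperm genes was 0.13. The cause of these shifts was not tested. In testes the filter removed Odf1, Odf3, Akap4 and Ropn1. Without it edgeR and DESeq2 called 0 of the first 3, with 0 at an unadjusted p under 0.05.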
